A study of Mus musculus with 6 samples.

Results

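Hexokinase, phosphofructokinase and PFKFB are the enzymes that start glycolysis and set its pace, and mice carry several isoforms of each, encoded by the 10 genes Hk1, Hk2, Hk3, Pfkl, Pfkm, Pfkp, Pfkfb1, Pfkfb2, Pfkfb3 and Pfkfb4. A gene was measured here when an array feature, that is a set of probes summarised to 1 value, carried its symbol alone. This gave 8 of the 10 genes, each with 1 feature, among 30176 genes in all. Pfkfb1 and Pfkfb2 were not analysed here, and the feature listed for Pfkfb2 is shared with C4bp-ps1.

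RNA came from primary microglia, the resident phagocytes of the brain, grown from newborn (P0) pups of CD1, an outbred mouse strain. Each culture pooled 5 pups. Cultures 3, 4 and 6, as numbered in the labels, each gave 1 array after 6 h at 21% oxygen (normoxia) and 1 after 6 h at 1% oxygen (hypoxia), so there were 3 arrays per group. No genotype or further agent is named. The question asked of these arrays was whether the isoforms of one enzyme differed in their response to 1% oxygen within the same culture. Values are log2 intensities normalized by RMA. A difference of 1 is therefore a doubling, and log2 fold changes are hypoxia minus normoxia, so that a positive value means a higher level at 1% oxygen.

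Hexokinases trap glucose in the cell as glucose 6-phosphate. Phosphofructokinase then commits fructose 6-phosphate to glycolysis, as a tetramer of liver (Pfkl), muscle (Pfkm) and platelet (Pfkp) type subunits that can mix. The PFKFB enzymes make and break down fructose 2,6-bisphosphate, a strong activator of phosphofructokinase, and their isoforms differ in the balance of these opposed activities. Isoforms of all 3 enzymes are known targets of the hypoxia-inducible factors, transcription factors that accumulate when oxygen is low and bind DNA at a core of ACGTG or GCGTG.

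The sequence around an annotated start is shown for 3 genes that rose at 1% oxygen (Hk2, Pfkl, Pfkfb3). It is also shown for 2 that did not pass the test (Hk3, Pfkfb4). Isoforms of hexokinase and of PFKFB can thus be set side by side, while Pfkl stands alone for phosphofructokinase. Each window is RefSeq sequence of GRCm38.p6, written 5' to 3' on the gene's own strand, from 250 bases before to 50 bases after the start. Capitals mark ACGTG or GCGTG on either strand (CACGT or CACGC when read on the strand shown). The palindrome CACGTG holds ACGTG on both strands and counts as 2.
Hk2 (chr6:82774405-82774704, minus strand): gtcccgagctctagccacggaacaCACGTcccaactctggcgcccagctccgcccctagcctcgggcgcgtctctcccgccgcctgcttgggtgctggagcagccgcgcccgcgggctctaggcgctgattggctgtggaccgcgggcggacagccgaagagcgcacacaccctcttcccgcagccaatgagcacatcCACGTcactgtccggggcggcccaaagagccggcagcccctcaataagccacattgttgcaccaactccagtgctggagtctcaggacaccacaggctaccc
Hk3 (chr13:55021336-55021635, minus strand): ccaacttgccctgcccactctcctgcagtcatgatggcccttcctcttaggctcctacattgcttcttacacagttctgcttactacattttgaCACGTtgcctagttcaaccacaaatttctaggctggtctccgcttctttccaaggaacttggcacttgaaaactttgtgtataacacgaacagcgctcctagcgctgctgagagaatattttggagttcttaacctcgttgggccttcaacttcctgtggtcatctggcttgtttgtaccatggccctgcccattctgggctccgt
Pfkl (chr10:78009758-78010057, minus strand): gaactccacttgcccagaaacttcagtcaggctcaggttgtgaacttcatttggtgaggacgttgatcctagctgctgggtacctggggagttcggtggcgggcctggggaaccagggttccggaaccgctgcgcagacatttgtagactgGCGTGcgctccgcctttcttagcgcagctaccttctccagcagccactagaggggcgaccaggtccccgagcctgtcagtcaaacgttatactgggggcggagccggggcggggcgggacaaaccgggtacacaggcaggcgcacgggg
Pfkfb3 (chr2:11502041-11502340, minus strand): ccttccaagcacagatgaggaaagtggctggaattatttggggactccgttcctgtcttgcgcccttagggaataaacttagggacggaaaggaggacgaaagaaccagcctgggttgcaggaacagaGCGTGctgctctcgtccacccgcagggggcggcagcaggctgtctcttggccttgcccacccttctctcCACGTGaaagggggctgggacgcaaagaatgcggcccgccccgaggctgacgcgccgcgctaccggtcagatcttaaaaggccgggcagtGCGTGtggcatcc
Pfkfb4 (chr9:108991652-108991951, plus strand): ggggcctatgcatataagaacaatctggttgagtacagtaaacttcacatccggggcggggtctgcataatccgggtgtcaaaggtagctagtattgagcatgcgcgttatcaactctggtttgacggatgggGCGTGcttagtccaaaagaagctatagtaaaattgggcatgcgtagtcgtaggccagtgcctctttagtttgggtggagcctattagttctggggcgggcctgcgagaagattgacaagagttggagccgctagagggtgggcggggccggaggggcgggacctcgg
The Hk2 window held 2 matches, which began 226 and 52 bases before the start, and the Hk3 window held 1, which began 156 bases before it. Pfkl and Pfkfb4 had 1 match each, both GCGTG, which began 99 and 117 bases before their starts. The Pfkfb4 window and the Pfkfb3 window shown lie inside the spans of their genes and not at the 5' ends of these spans. Of the 2 Pfkfb3 starts, the one shown is the richer, with 4 matches, among them a CACGTG, and the other held 1, an ACGTG that began 60 bases before the start. Of the windows not shown, that of Pfkp held 4 matches, all GCGTG, and 3 of the 4 Pfkm windows held at least 1. The letters thus stood in windows of genes that rose and of genes that did not pass the test. The 8 genes have 13 windows in the RefSeq table, of which 11 held at least 1 match and 2, 1 of Hk1 and 1 of Pfkm, held none. These windows are not all separate: 2 of Pfkm overlap (chr15:98108221-98108520 and chr15:98108306-98108605) and share a CACGC. Among all 32851 mouse windows of this length, 43.8% held either core, 19.6% ACGTG and 32.4% GCGTG. The isoforms' windows held from 1 to 30 CG steps, and the shares over all windows were not matched for this. A match is a description of these letters and no measure of binding.

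At 1% oxygen 5 of the 8 isoforms rose (Hk1, Hk2, Pfkl, Pfkp and Pfkfb3) and none fell, so that each enzyme had at least 1 isoform that passed the test and 1 that did not. The rises ran from 1.54-fold for Hk1 to 2.73-fold for Pfkl, while Hk3 and Pfkfb4 stayed within 0.09 of their normoxic mean on the log2 scale and did not pass the test. Pfkm did not pass either (adjusted p = 0.103 in limma) but was higher in each culture, with a log2 fold change of 0.36. All these calls are from limma with culture as a block, with p adjusted by Benjamini-Hochberg over all genes and a threshold of 0.05. The background for this count is that 0.421% of all 30176 genes were called higher (127 genes) and 0.116% lower (35 genes). At an unadjusted p of 0.05, 6 isoforms were higher and 0 lower, where 7.68% of all genes were higher and 9.26% lower, and these shares are the background for every unadjusted count that follows. Without the block, 4 of the 5 passed, against 0.209% of all genes called higher, and Pfkp did not. In 6 isoforms every hypoxic array lay above every normoxic array, as it did in 8.24% of all genes. The median log2 fold change was 0.67 over the 8 isoforms and 0.03 over all genes. The labels call the cultures biological replicates.

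**Figure D1:**
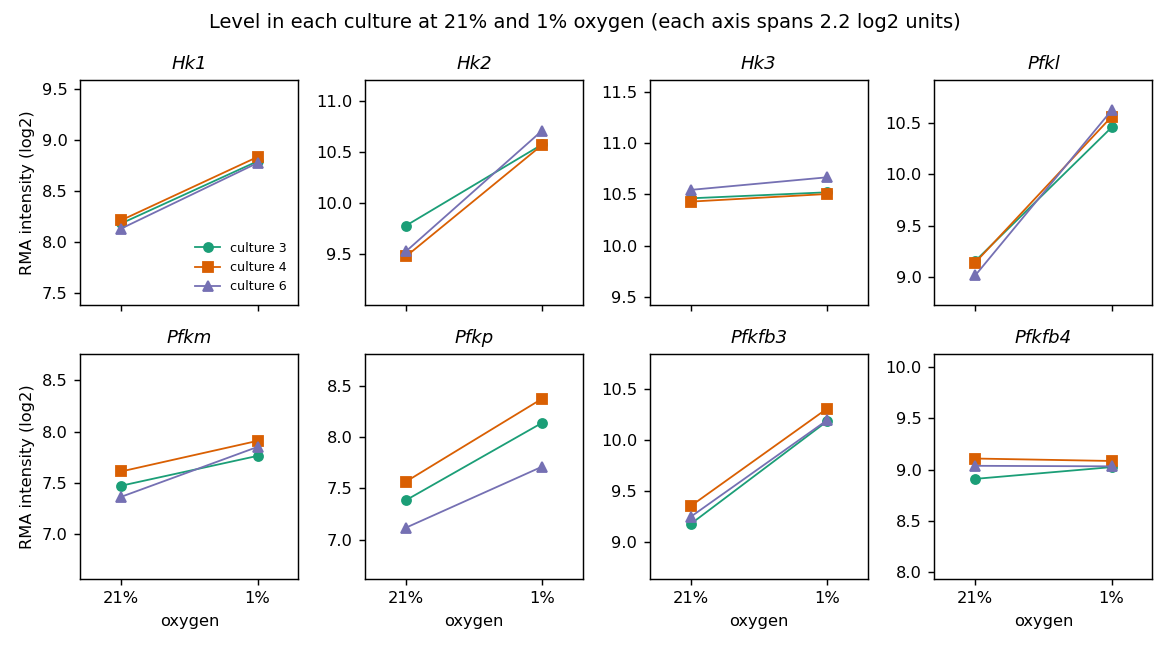
Log2 intensity of the 8 isoforms (vertical axis) at 21% and 1% oxygen, with 1 point per array and lines joining the arrays of a culture. Every line of Pfkl, Hk2 and Pfkfb3 climbs steeply (by 0.79 or more), and those of Hk3 and Pfkfb4 are nearly flat, between -0.02 and 0.12.

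The cultures were checked for their cell type. Of 10 microglial markers 9 were measured, and their summed linear intensity was 28125 to 28872 in normoxia and 26425 to 28735 in hypoxia. None was called (0 higher and 2 lower at an unadjusted p of 0.05 in limma, 0 called without the block), and the dimmest, Tmem119, had a mean of 8.46. Of the 9 markers 3 were above 0, where 59.7% of all genes were, and the median log2 fold change was -0.08. Markers of fibroblasts and pericytes moved with oxygen. Their summed intensity over 9 of 10 listed genes rose within each culture, from 3966 to 5205 in culture 3, from 1482 to 2248 in culture 4 and from 1773 to 2213 in culture 6. Of the 9 genes 8 were above 0 (59.7% of all genes were), the median log2 fold change was 0.41, and at an unadjusted p of 0.05 limma had 6 higher and 0 lower. The collagen genes Col1a1 and Col3a1 passed the test with adjusted p of 0.0460 and 0.0453 (neither passed without the block). Their dimmest, Rgs5, had a mean of 5.28, and RMA values have no true zero. The part of these cells in the isoforms' changes was not tested. Of the markers of astrocytes, the oligodendrocyte lineage, neurons, endothelium and muscle, none was called in either limma fit. At an unadjusted p of 0.05, 4 of 7 endothelial markers were higher (all 7 were above 0, with a median of 0.20), as was 1 each of the astrocyte, oligodendrocyte lineage and neuron lists and 0 of the muscle list. None of these lists had a marker that was lower at that p. The part of endothelial cells in the isoforms' changes was not tested either. In cultures measured in bulk, fewer cells of a type and less RNA per cell cannot be told apart.

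Hk2 rose most among the hexokinases. This isoform, typical of insulin-responsive tissue, can bind the outer membrane of mitochondria (gene at chr6:82725025-82774454, GRCm38). Its level was 9.78, 9.48 and 9.53 in normoxic cultures 3, 4 and 6, and 10.58, 10.57 and 10.71 in the same cultures at 1% oxygen. The groups were separate, with culture 3 the highest in normoxia and the smallest in its response. The log2 fold change was 1.02 ± 0.09 (SE, n = 3 cultures, adjusted p = 0.0121 in limma), which is 2.03-fold with a 95% interval of 1.75 to 2.36.

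Hk1, the isoform most abundant in brain, rose by less and with nearly the same size in every culture (chr10:62268855-62379920). Normoxic arrays had 8.18, 8.21 and 8.13, and hypoxic arrays 8.79, 8.83 and 8.77, so the groups did not overlap. The rise per culture was 0.61, 0.62 and 0.64. Its log2 fold change was 0.62 ± 0.06 (SE, n = 3 cultures, adjusted p = 0.0194 in limma), or 1.54-fold with a 95% interval of 1.39 to 1.71.

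Hk3, a hexokinase of myeloid cells, did not pass the test (chr13:55005985-55021475). It measured 10.46, 10.43 and 10.54 in normoxia and 10.52, 10.50 and 10.67 in hypoxia, and the groups overlapped. Each culture was slightly higher at 1% oxygen, by 0.06, 0.07 and 0.12. The log2 fold change of 0.09 had a 95% interval of -0.06 to 0.23 (adjusted p = 0.512 in limma). A rise as large as that of Hk1 lies outside this interval. The size of the Hk3 estimate moved with the scaling. It was 0.20 after quantile normalization, 0.19 after cyclic loess and 0.04 after median centring, and passed under none of them.

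Pfkl, the liver-type subunit of phosphofructokinase, had the largest rise of the 8 isoforms and the 16th largest log2 fold change of all genes (chr10:77986947-78009807). Its level went from 9.15, 9.14 and 9.01 in normoxia to 10.46, 10.56 and 10.63 in hypoxia. Every hypoxic array stood more than 1 log2 unit above every normoxic one. The log2 fold change was 1.45 ± 0.08 (SE, n = 3 cultures, adjusted p = 0.00198 in limma), which is 2.73-fold with a 95% interval of 2.39 to 3.11.

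Pfkp, the platelet-type subunit, rose within every culture, but its cultures lay far apart (chr13:6579874-6649060). Normoxic values were 7.38, 7.57 and 7.12, and hypoxic values 8.14, 8.38 and 7.71. Culture 6 was the lowest and culture 4 the highest in both conditions, and the highest normoxic array (7.57) came close to the lowest hypoxic one (7.71). The rises per culture were 0.76, 0.81 and 0.60. With the block the log2 fold change was 0.72 ± 0.07 (SE, n = 3 cultures, adjusted p = 0.0194 in limma), or 1.65-fold. Without it the SE was 0.18 and the adjusted p 0.322, and after centring each array on its median, with the block, the adjusted p was 0.0598.

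Pfkm, the muscle-type subunit, had hypoxic values above its normoxic ones but did not pass the threshold (chr15:98092589-98132447). It measured 7.47, 7.61 and 7.36 in normoxia and 7.76, 7.91 and 7.85 in hypoxia. The groups did not overlap. The log2 fold change was 0.36, with an unadjusted 95% interval of 0.19 to 0.53 and an adjusted p of 0.103 in limma. None of the 6 listed muscle markers was called, 0 higher and 0 lower also at an unadjusted p of 0.05.

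Pfkfb3, the isoform whose kinase activity far outweighs its phosphatase activity, rose nearly alike in each culture (chr2:11471430-11554071). Its values were 9.18, 9.35 and 9.25 in normoxia and 10.18, 10.31 and 10.19 in hypoxia. The rise per culture was 1.00, 0.95 and 0.94, and the groups were wide apart. The log2 fold change was 0.97 ± 0.06 (SE, n = 3 cultures, adjusted p = 0.00384 in limma), or 1.95-fold with a 95% interval of 1.76 to 2.17.

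Pfkfb4, an isoform first known from testis, did not pass the test (chr9:108988272-109032236). Normoxic values of 8.91, 9.11 and 9.04 stood against hypoxic values of 9.02, 9.08 and 9.03. The groups overlapped, with culture 3 higher by 0.11 at 1% oxygen and the others lower, by -0.02 and -0.01. Its log2 fold change of 0.03 had a 95% interval of -0.13 to 0.19 (adjusted p = 0.834 in limma), which leaves out a rise of the size of Pfkfb3. The sign rests on culture 3 and on the scaling: it was -0.0146 without either array of that culture and -0.0135 after median centring.

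**Figure D2:**
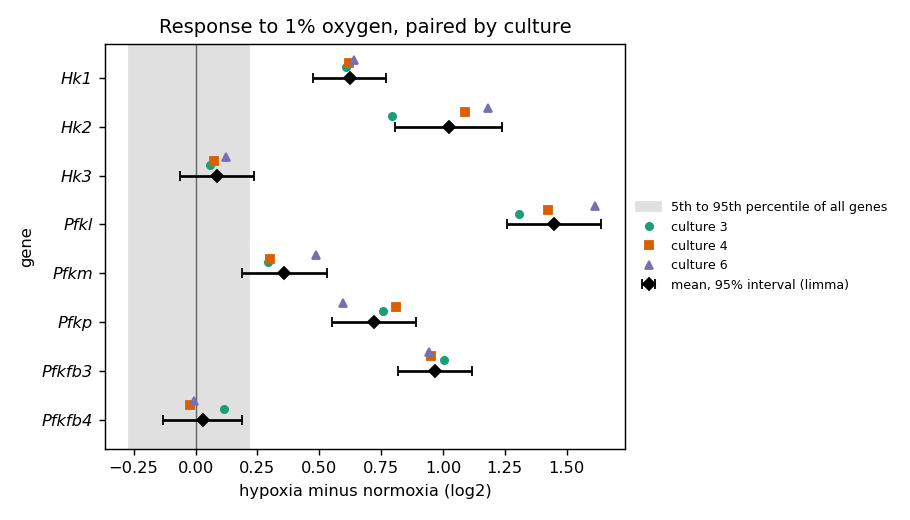
Log2 fold change of each isoform (hypoxia minus normoxia), with a point per culture and the limma estimate with its 95% interval, beside the 5th to 95th percentile of all genes (-0.27 to 0.22). Pfkl, Hk2 and Pfkfb3 lie farthest to the high side, and Hk3 and Pfkfb4 lie inside the band.

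The isoforms of one enzyme were compared directly through the difference between their responses in the same culture, for 7 pairs with both members measured. Pfkl rose more than Pfkm in every culture, by 1.01, 1.13 and 1.13, a mean of 1.09 ± 0.06 (SD, n = 3 cultures). Hk2 exceeded Hk3 by 0.94 ± 0.18 and Pfkfb3 exceeded Pfkfb4 by 0.94 ± 0.04. Pfkl rose more than Pfkp by 0.73 ± 0.25, and Hk1 more than Hk3 by 0.54 ± 0.02. The smallest mean differences were Hk1 minus Hk2, at -0.40 ± 0.19, and Pfkm minus Pfkp, at -0.36 ± 0.22, whose cultures ran from -0.51 to -0.11. All 7 pairs had the same direction in the 3 cultures. Each mean difference was larger than its SD between cultures. An exact two-sided permutation test within cultures cannot go below p = 0.25 with 3 cultures, which is the value each pair had (0.25 after Benjamini-Hochberg over the 7 pairs). This test could not pass the threshold whatever the values, so it speaks neither for nor against a difference. With the 6 arrays taken as unpaired, the exact two-sided permutation p, which cannot go below 0.1, was 0.1 for 6 pairs (adjusted 0.117) and 0.3 for Pfkm and Pfkp (adjusted 0.3).

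**Figure D3:**
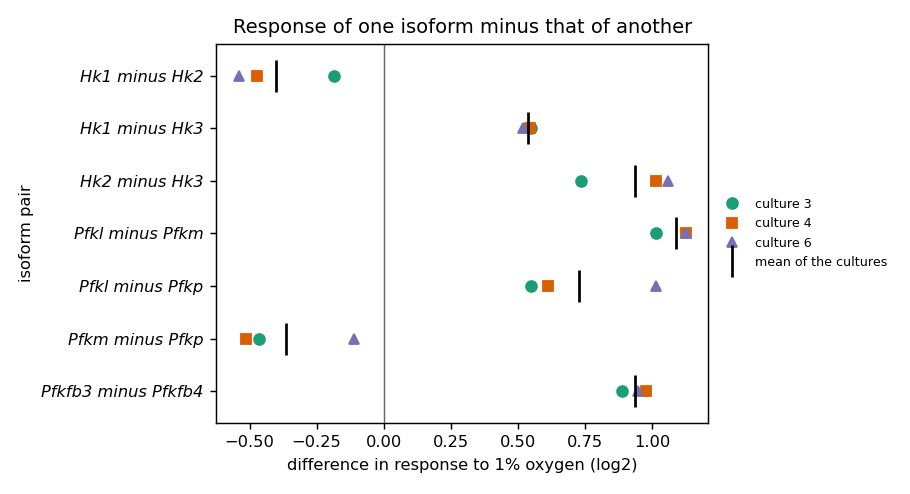
Difference between the responses of 2 isoforms of one enzyme, in log2 units, with a point per culture and the mean. Points of a pair lie on one side of 0 in all 7 pairs, and Hk1 minus Hk3 and Pfkfb3 minus Pfkfb4 have the narrowest spread (SD of 0.02 and 0.04).

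The levels themselves cannot be set against each other across isoforms, since each rests on its own probes. As a description, the place of each feature among all genes in normoxia was the 94.3rd percentile for Hk3, 89.9 for Hk2 and 75.6 for Hk1. At 1% oxygen Hk2 was at 95.2, with Hk3 and Pfkl, the latter up from 85.9, within 1 percentile of it, while Pfkm and Pfkp, at 66.5 and 64.7, moved to 71.6 and 74.7. Pfkfb3 moved from 87.3 to 93.7, and Pfkfb4 was at 85.1 and 85.9.

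Across the 6 arrays the levels of Hk1, Pfkl and Pfkfb3 ran in parallel, with Pearson r of 0.995 for Hk1 with Pfkl, 0.995 for Hk1 with Pfkfb3 and 0.988 for Pfkl with Pfkfb3. Hk3 had r of -0.02 to 0.61 with the other isoforms, and Pfkfb4 of -0.02 to 0.40. These values describe arrays that share oxygen level and culture. By the same measure, the genes most like Pfkl were Rest (r = 0.999), a repressor of neuronal genes, Tpi1 (0.998), a glycolytic enzyme, and Slc16a3 (0.997), a lactate exporter. Those nearest to Hk2 were Rassf1 (0.999), Fam162a (0.992) and Ube2o (0.992), and those nearest to Pfkfb3 were Mthfd1l (0.999), Alx1 (0.999) and Egln3 (0.998), an oxygen-sensing prolyl hydroxylase. A high r does not mean a large change: Rassf1 had a log2 fold change of 0.23 and Alx1 of 0.16, neither called, while Egln3 had 3.30. Such values were common, since 171 genes had r above 0.95 with Hk2, 202 with Pfkl and 204 with Pfkfb3.

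Of other genes of glucose 6-phosphate and fructose 6-phosphate metabolism and of neighbouring sugar pathways, Pgm1 and Slc37a4 rose at 1% oxygen. In all, 26 of 32 listed genes were measured, of which 2 rose and 0 fell, against 0.421% and 0.116% of all genes. Without the block, 2 were called higher and 0 lower. At an unadjusted p of 0.05 in limma, 3 were higher and 3 lower. The median log2 fold change was 0.05, with 16 above 0, where 59.7% of all genes were. Pgm1, a phosphoglucomutase that links glycogen to glucose 6-phosphate, went from 8.77, 8.77 and 8.53 to 10.20, 10.30 and 10.19, a log2 fold change of 1.54 ± 0.07 (SE, n = 3 cultures, adjusted p = 0.000885 in limma). Slc37a4, the carrier of glucose 6-phosphate into the endoplasmic reticulum, went from 7.58, 7.48 and 7.50 to 8.16, 8.37 and 8.24. Its log2 fold change was 0.74 ± 0.08 (SE, n = 3 cultures, adjusted p = 0.0239 in limma). In both genes the groups were far apart. Among enzymes that act against phosphofructokinase, the fructose bisphosphatases Fbp1 and Fbp2 had -0.05 and 0.05. Tigar, which lowers fructose 2,6-bisphosphate, had -0.10, and none of them passed. Hkdc1, a further hexokinase-domain gene, had 0.17 (adjusted p = 0.301 in limma). The other 6 listed genes were not analysed here.

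None of 14 listed regulators and partners was called, and 0 without the block. At an unadjusted p of 0.05 in limma, 1 was higher and 2 lower. The 14 had a median of -0.01, with 7 above 0, where 59.7% of all genes were. They include the mitochondrial channels to which hexokinases bind, kinases that act on the PFKFB enzymes, and the hypoxia-inducible factor genes. Of these channels, Vdac1 had 0.41 (adjusted p = 0.0744 in limma). Vdac2 and Vdac3 leaned the other way, with -0.12 and -0.20 (adjusted p = 0.385 and 0.210 in limma). Hif1a had -0.24 (adjusted p = 0.251 in limma).

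Pfkl kept its call in all 6 fits that left out 1 array, and Hk1, Hk2, Pfkp and Pfkfb3 in 4 of 6. With culture as a block, leaving out either array of a culture gave the same values. These 6 fits thus repeat in pairs, 1 pair per culture. Leaving out either array of culture 3 reduces the paired estimate to cultures 4 and 6. Without it, 1 isoform, Pfkl (adjusted p = 0.0430 in limma), passed. The adjusted p was then 0.180 for Hk1, 0.0749 for Hk2, 0.180 for Pfkp and 0.105 for Pfkfb3. Their log2 fold changes from cultures 4 and 6 were 0.63, 1.14, 0.70 and 0.95, close to or above those from the 3 cultures. These 5 isoforms and Hk3 and Pfkm kept their direction in all 14 alternative fits. Some of these fits could not turn a direction, since they left each isoform's log2 fold change as it was. They were the fits without the block, on brighter genes alone, with trend and robust settings, and on the mean of all features.

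**Figure D4:**
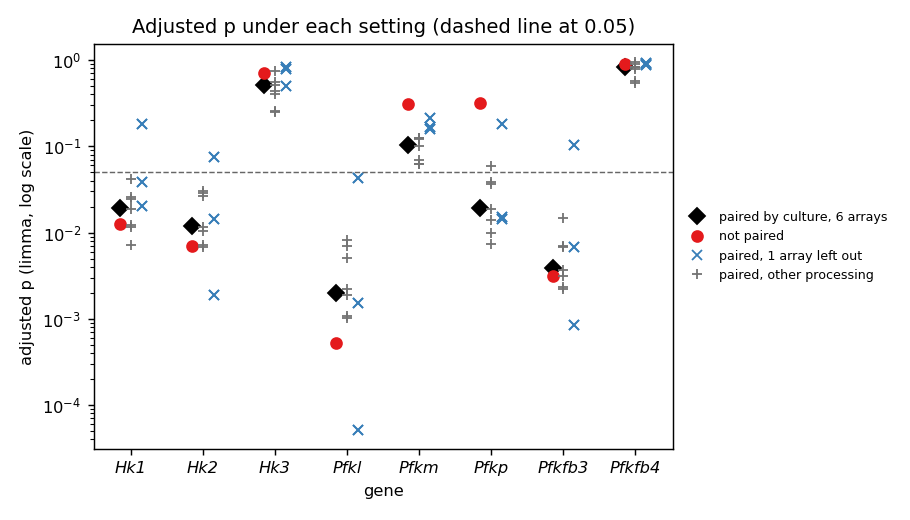
Adjusted p (limma, log scale) of each isoform under the reported fit and the 14 alternatives, with 1 mark per fit. Marks differ by the type of fit, and a dashed line stands at the threshold of 0.05. All marks of Pfkl lie below the line (5.07e-05 to 0.0430 under the alternatives), and all of Hk3, Pfkm and Pfkfb4 lie above it.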

How the data were processed

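RNA extracted with TRIZOL was labelled with a WT terminal labeling kit and hybridised to one-colour Affymetrix arrays, per the labels. Values were deposited as log2 intensities after RMA by the authors (background correction, quantile normalization, probe summary). The submitters' processing notes list RMA, limma and Affymetrix Expression Console, with mm10 as the build and no versions. For filters on probes, the sources used here say nothing. Depth has no counterpart on arrays, whose number limits the precision.

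Of 72688 features, 30638 had 1 symbol in the platform annotation, 2176 several and 39874 were not listed. Where a gene had several features (354 genes) the one with the highest mean was kept. Array medians lay between 5.84 and 5.92, arrays of a group correlated at 0.987 to 0.993, and 0 pairs were identical.

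Hypoxia was compared with normoxia with lmFit and eBayes (limma 3.58.1, R 4.3.3), culture as a block, and Benjamini-Hochberg adjustment over 30176 genes at 0.05, tested first on simulated data. The labels pair arrays by culture, and within cultures 3, 4 and 6 the deviations from group means had r of 0.57, 0.40 and 0.22. Between unlike cultures r ran from -0.50 to 0.14. The deviations of the 3 arrays of a group sum to 0, so these values are not independent. Levels were turned into fold values as powers of the log2 change. Of 12 planned isoform pairs, 5 involve Pfkfb1 or Pfkfb2 and were not made. All isoforms are named, along with list genes called in the fit. Some list genes that were not called, such as Hkdc1, Vdac1 and Hif1a, are named outside this rule. For the isoform of each enzyme with the largest change, the 3 genes with an established symbol and the highest r are named. Members and lists were chosen with earlier results of these data known.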

Additional observations from a re-analysis of the deposited data

How the results depend on the processing

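With 3 arrays per group, calls moved with the fit. Without the replicate block, which follows the cultures' pairing, 63 genes were higher and 5 lower, in place of 127 and 35. Array weights gave 249 and 144, a fit with trend and robust settings 221 and 121, and brighter genes alone 193 and 101. Median centring gave 53 and 6, quantile normalization 87 and 10, and cyclic loess 88 and 11, so that the higher share of the calls grew. Leaving out 1 array gave 17 to 135 higher and 1 to 94 lower, and 1 to 5 isoforms higher, with the lowest counts without culture 3 (17, 1 and 1) and with 94 and 22 lower without cultures 4 and 6. The cause of these moves was not tested. Of 112 isoform values under alternatives, 99 kept direction and side of the threshold and 10 lost the call. The other 3 turned sign, all of Pfkfb4 (-0.0135 after median centring, -0.0146 to 0.0548 with 1 array left out). This tally holds fits that could not change a log2 fold change. It also holds the same values again for each array of a culture left out. Of the alternatives run on the 7 isoform differences, cyclic loess alone could move them, since a shift of a whole array cancels between isoforms and each isoform has 1 feature, and under it all 7 kept their direction. Signal over background was not assessed here.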
